A study of Saccharomyces cerevisiae with 41 samples.

Results

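Budding yeast without the SNF1 gene (snf1) were compared with wild type (WT) in their transcript response to ultraviolet light (UV), 30 min after irradiation. The comparison rests on 8 of the 41 Affymetrix Yeast 2.0 arrays of the series, 2 for each of 4 groups: unirradiated WT, WT at 30 min, unirradiated snf1 and snf1 at 30 min. The labels of the samples alone chose them. Both strains are labelled as YPH499 in background, and snf1Δ is the only allele the labels add. Nothing used here says whether the deletion strain is 1 clone. Cells in YPD medium, which is rich in glucose, were grown at 30 °C to an OD600 of 1.0, then held briefly in water for 100 J/m2 of UV-C or, in the unirradiated groups, for a mock treatment. After UV they recovered in newly supplied YPD. No mock-treated array at 30 min is among the 41, so a response to UV also holds whatever the passage through water into new medium does.

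The response of a strain is its log2 signal at 30 min minus its log2 signal without irradiation, and the difference in response is that of snf1 minus that of WT. The same number is the gap between the strains at 30 min minus the gap at the start. A strain that starts from another level and ends at the same one therefore has a different response, and for this reason all 4 group levels are given. Levels are log2 signals of single arrays, in the order of their replicate numbers, and differences are log2 units ± SE from limma, in which 1 unit is a factor of 2. Called means an adjusted p under 0.05 by the Benjamini-Hochberg method over 5380 tested probe sets, and "rose" and "fell" are used of called changes. The arrays number 2 in each group, and that number limits the precision.

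Snf1 is the catalytic subunit of the yeast counterpart of mammalian AMP-activated protein kinase. The kinases Sak1, Tos3 and Elm1 switch it on when glucose runs low. Active Snf1 lifts repression by Mig1 and acts through the activators Cat8, Sip4 and Adr1 to turn on genes for growth on ethanol, acetate, lactate and fatty acids. UV lesions are met in yeast by excision repair and by the checkpoint kinases Mec1, Rad53 and Dun1. Among the outcomes of that checkpoint is relief of repression by Rfx1 (Crt1) at genes of ribonucleotide reductase, the enzyme that makes deoxyribonucleotides.

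The arrays were first checked against their labels. SNF1 signal was 11.92 and 11.76 in unirradiated WT and 11.77 and 11.69 in WT at 30 min, against 2.33 and 2.32 and 2.33 and 2.73 in snf1, where the arrays' background lay at 2.15 to 2.18. All 7 genes of a cells, the mating type of YPH499, were expressed, from 7.12 (ASG7) to 14.34 (MFA2). The pheromone genes of alpha cells, MF(ALPHA)1 and MF(ALPHA)2, were at background (1.98 to 2.13). The other 2 alpha genes were above it: SAG1 at 7.86 to 10.12 and STE3 at 4.64 to 8.47, with unirradiated STE3 higher in snf1 by 2.68 ± 0.37 (adjusted p = 4.6e-06). The log2 levels of the 4 alpha genes summed to 17.84 to 18.35 on the WT arrays and 21.07 to 21.99 on the snf1 arrays. Those of the 7 a genes moved the other way, with sums of 89.55 to 90.01 in unirradiated WT against 84.48 to 84.78 in unirradiated snf1, and of 85.55 to 85.56 against 80.20 to 80.62 at 30 min. In unirradiated snf1 5 of the 7 were called lower, beside 23.6% of all tested probe sets. Between the 2 arrays of a group, 41 probe sets in unirradiated WT, 16 in WT at 30 min, 18 in unirradiated snf1 and 6 in snf1 at 30 min lay over 2-fold apart. The control signal of 18S ribosomal RNA was 9.01 to 12.46 in unirradiated WT, 12.78 to 12.98 in WT at 30 min, 5.01 to 6.29 in unirradiated snf1 and 11.53 to 12.02 in snf1 at 30 min. The 3′ minus 5′ signal of SPT15, which is larger in degraded RNA, was 1.32 to 1.36 on the WT arrays and 1.54 to 1.69 on the snf1 arrays. For ACT1 it was 0.11 to 0.12 in unirradiated WT and 0.17 to 0.23 in WT at 30 min. In snf1 the ACT1 values were 0.11 to 0.15 and 0.18 to 0.20. For SRB4 they were 2.83 to 2.98 and 3.34 to 3.37 in WT, and 3.17 to 3.61 and 3.57 to 3.92 in snf1. The part of these values, and of the mating type genes, in the results was not tested. The 18S signal was lowest on the 2 unirradiated snf1 arrays, the group that sets the start of most genes described here.

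The response to UV differed between the strains for 219 of 5380 probe sets (4.07%), with 115 higher in snf1 (2.14%) and 104 lower (1.93%). At an unadjusted p under 0.05 there were 818. The main count was 110 without the second array of unirradiated snf1, 121 without the second array of unirradiated WT, 131 without the first array of WT at 30 min, and 130 or 133 without the first or second array of snf1 at 30 min. It was 157, 162 and 195 without each of the other 3, and 89 calls held in all 8 of these fits. In a fit without the 6 arrays of WT at 60 min and of mig3 (a strain without the repressor gene MIG3) at 30 and 60 min, whose replicates lay far apart, the count was 562. Taken singly, the response of WT was called for 1353 probe sets (25.1%; 12.6% rose and 12.6% fell) and that of snf1 for 1672 (31.1%; 15.7% rose and 15.3% fell). The largest group among the 219, 64 probe sets, rose in snf1 with no call in WT, and 50 fell in snf1 with no call in WT. A further 34 rose in WT alone, 23 fell in WT alone, 18 rose in both strains and 8 fell in both. The strains moved to opposite sides in 20: 11 rose in WT and fell in snf1, and 9 fell in WT and rose in snf1. For the other 2, ECM13 and EHT1, neither response was called. In cultures measured in bulk, fewer cells that express a gene and less of its RNA per cell cannot be told apart.

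In most of these genes the strains differed more before irradiation than at 30 min. Over all probe sets they differed without irradiation for 2436 probe sets (45.3%; 21.6% higher in snf1 and 23.6% lower) and at 30 min for 1403 (26.1%; 13.2% higher and 12.9% lower). Of the 219, the strain difference was called before irradiation alone in 140, at 30 min alone in 14, and at both in 65, of which 53 kept their side and 12 changed it. Over all tested probe sets the shares were 23.0% before irradiation alone, 3.81% at 30 min alone, 22.0% at both on 1 side, 0.223% at both on opposite sides and 50.9% at neither. The gap between strains was larger at the start than at 30 min in 194 of the 219 (88.6%), against 68.3% of all tested probe sets. Unirradiated arrays enter both the difference in response and the gap at the start, so these shares are a description without a test. By direction, the gap at the start was the larger one in 92 of the 115 with a higher response in snf1 and in 102 of the 104 with a lower one. The median gap of the 115 was -1.17 unirradiated and 0.02 at 30 min. In the 104 it was 1.77 and 0.32. The 115 mostly began lower in snf1 than in WT (103 of 115) and the 104 began higher (103 of 104), and both sets were closer to WT at 30 min.

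**Figure D1:**
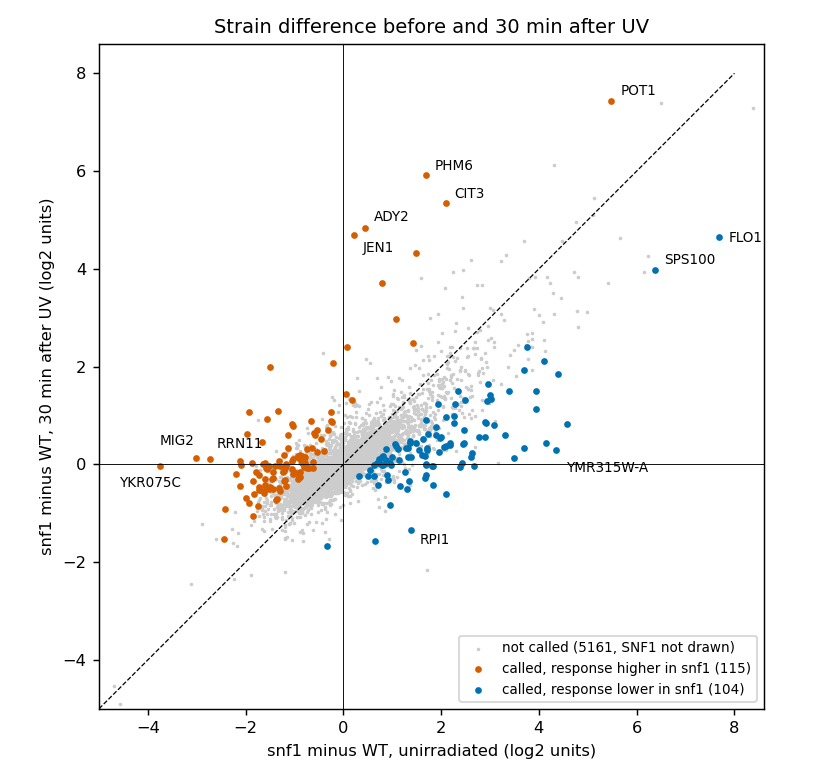
Each point is 1 probe set, with the log2 difference of snf1 from WT without irradiation on the horizontal axis and at 30 min on the vertical axis; on the dashed line both are equal and the responses do not differ. The 115 called higher (orange) lie above the line and the 104 called lower (blue) below it, most of them near a vertical value of 0, while JEN1 and ADY2 lie near a horizontal value of 0; SNF1 lies outside the axes.

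The exceptions were led by genes for the use of poor carbon sources, which did not differ from WT by the test at the start and were high in snf1 at 30 min. JEN1 encodes the plasma membrane carrier of lactate and pyruvate, and its transcription is known to be repressed by glucose. JEN1 signal was 3.52 and 3.03 on the unirradiated WT arrays, 3.03 and 3.03 in WT at 30 min, 3.43 and 3.54 in unirradiated snf1 and 7.70 and 7.72 in snf1 at 30 min. The 2 irradiated snf1 arrays thus stood far above the other 6, which lay between 3.03 and 3.54. Its response was higher in snf1 by 4.47 ± 0.24 (adjusted p = 1.35e-11), and the gap between strains was 4.68 ± 0.17 at 30 min against 0.21 ± 0.17 before irradiation. Since 3.03 recurs as the lowest JEN1 signal, it may be the least that this probe set can give. The gap at 30 min may then be a lower limit.

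ADY2, which encodes an acetate transporter, followed the same course. It ran from 3.57 and 3.12 to 4.11 and 3.09 in WT and from 3.80 and 3.76 to 8.51 and 8.38 in snf1, so that all values except the irradiated snf1 arrays were 4.11 or lower. The difference in response was 4.40 ± 0.39 (adjusted p = 1.89e-07), with a gap of 0.44 ± 0.27 at the start. PDH1 encodes a protein of propionate breakdown, a mitochondrial 2-methylcitrate dehydratase by homology. Its values were 9.58 and 9.78 before and 10.58 and 10.24 after UV in WT, and 9.72 and 9.78 before and 12.88 and 12.75 after UV in snf1. WT rose by 0.73 ± 0.25 and snf1 by 3.06 ± 0.25, a difference of 2.33 ± 0.35 (adjusted p = 0.000427). Next to PDH1 on chromosome XVI lies CIT3, for a mitochondrial citrate and methylcitrate synthase. Its signal went from 5.29 and 4.63 to 5.38 and 5.19 in WT and from 6.93 and 7.18 to 10.75 and 10.52 in snf1, and here the strains were apart already at the start, by 2.09 ± 0.38. At 30 min they were apart by 5.35 ± 0.38, which gives a difference in response of 3.25 ± 0.54 (adjusted p = 0.000869).

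RGI2, named for its induction during respiratory growth, was near background except on the irradiated snf1 arrays. Its signal was 2.59 and 2.15 before and 2.13 and 2.14 after UV in WT, and 2.15 and 2.15 before and 4.43 and 3.99 after UV in snf1. Since WT at 30 min was at background, the gap at 30 min is a limit: RGI2 was at least 4.13-fold higher in snf1 (adjusted p = 5.39e-09). PXA1 encodes 1 of the 2 subunits of the peroxisomal importer of long-chain fatty acids. It went from 9.24 and 9.41 to 9.05 and 8.99 in WT and from 9.49 and 9.53 to 10.43 and 10.25 in snf1, with a difference in response of 1.13 ± 0.20 (adjusted p = 0.00183) with no gap called before irradiation (0.18 ± 0.14). ADH2, the alcohol dehydrogenase that oxidises ethanol, rose in both strains. Its values were 7.89 and 7.45 before and 10.71 and 10.15 after UV in WT, and 8.29 and 8.64 before and 14.15 and 14.14 after UV in snf1, and the groups at 30 min did not overlap, as held for 79.4% of tested probe sets. The rise was 2.76 ± 0.46 in WT and 5.68 ± 0.46 in snf1, a difference of 2.92 ± 0.65 (adjusted p = 0.00896), and the adjusted p was up to 0.0527 without 1 of the arrays.

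The other 8 of the 14 genes apart at 30 min alone had less in common. PDR12, the plasma membrane pump for weak organic acids, had a response higher in snf1 by 1.39 ± 0.29 (adjusted p = 0.00604), and its call held without any 1 array. The calls of the remaining 7 each ended without 1 of the arrays. CIT2 (peroxisomal citrate synthase), MSA2 (a G1 transcription regulator), NRG2 (a glucose-responsive repressor), YDR524W-C and PHM6 (a phosphate-regulated gene of unknown role) were higher in response by 1.02, 1.15, 1.10, 1.33 and 4.23. FLO11, the main adhesin of invasive growth, and YJL218W, a putative acetyltransferase, differed by -2.20 ± 0.61 and -1.34 ± 0.35. PHM6 is the widest of these in range, at 6.88 and 6.77 before and 4.23 and 3.99 after UV in WT, and 8.40 and 8.62 before and 10.02 and 10.03 after UV in snf1: the signal in WT at 30 min lay below every other group and that in irradiated snf1 above every other group.

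**Figure D2:**
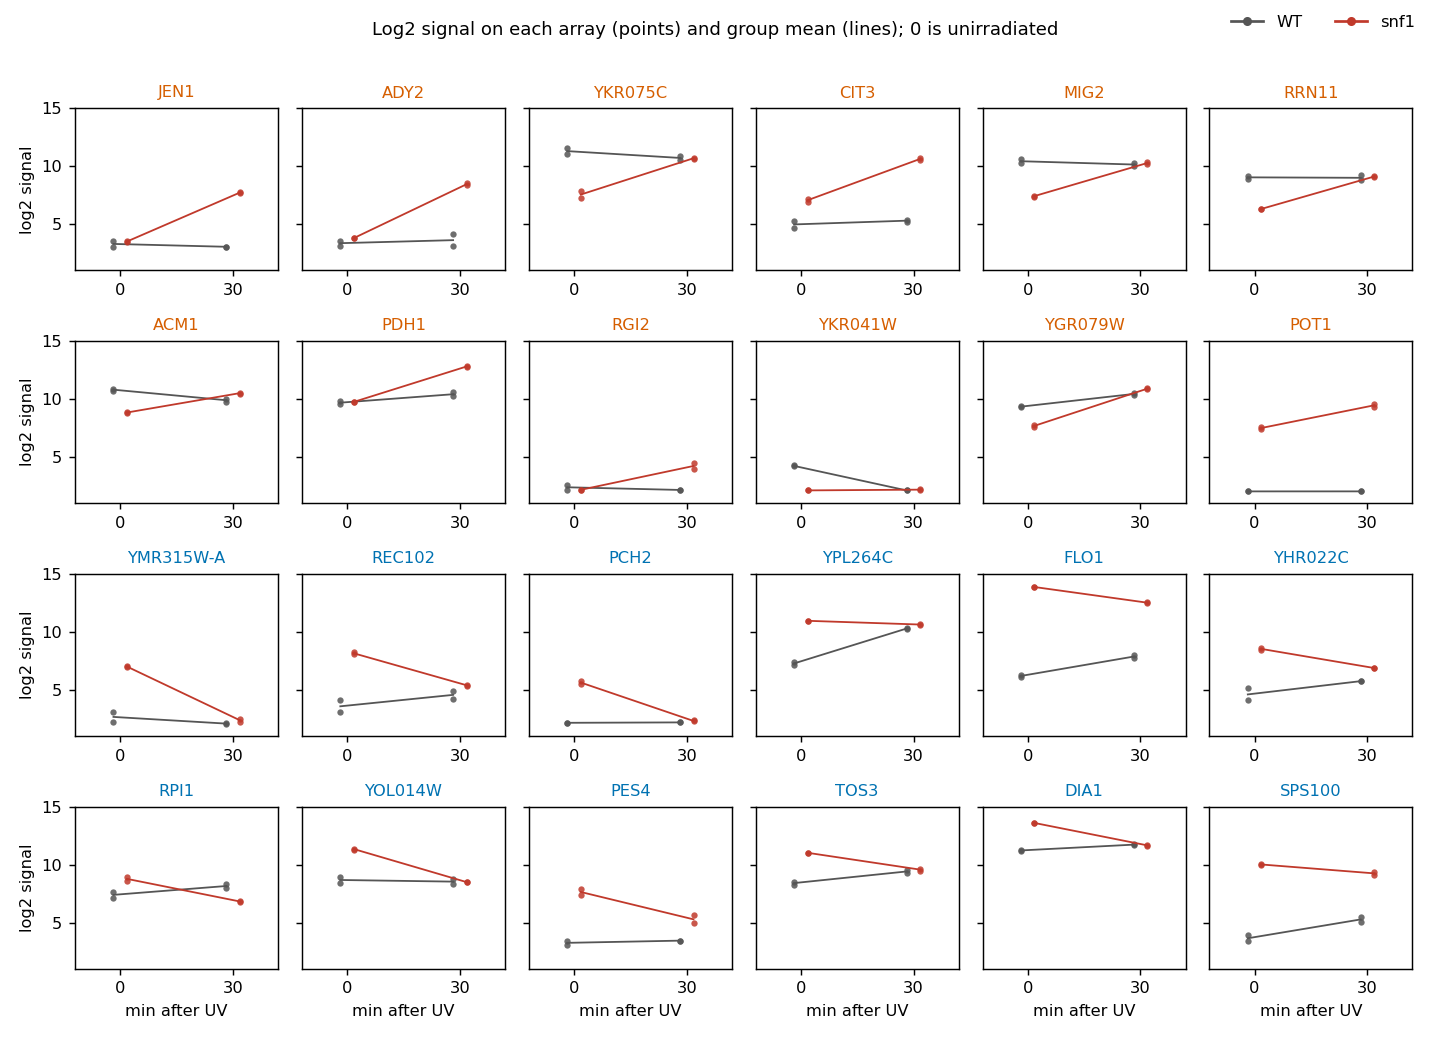
Log2 signal of 24 genes on each of the 8 arrays (points; WT grey, snf1 red), unirradiated at 0 and 30 min after UV, with lines joining the group means; the top 2 rows (orange titles) hold the 12 largest differences toward snf1 and the bottom 2 rows (blue titles) the 12 largest away from it, among calls that held without any 1 array. JEN1, ADY2 and RGI2 part at 30 min, MIG2 and RRN11 meet there from a low start in snf1, and YMR315W-A, PCH2 and DIA1 meet there from a high start.

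A second set of higher responses came from genes that were low in unirradiated snf1 and close to WT at 30 min. MIG2 encodes a zinc finger repressor that glucose induces and that shares targets with Mig1. Its signal was 10.60 and 10.26 on the unirradiated WT arrays, 10.24 and 10.04 in WT at 30 min, 7.46 and 7.37 in unirradiated snf1 and 10.34 and 10.20 in snf1 at 30 min. The unirradiated snf1 arrays stood alone below the other 6, all of them at 10.04 or more. The difference in response was 3.14 ± 0.52 (adjusted p = 0.000829), against gaps of -3.01 ± 0.37 at the start and 0.13 ± 0.37 at 30 min. YKR075C, an uncharacterised gene, had the lowest start against WT among the 219. It went from 11.55 and 11.05 to 10.87 and 10.55 in WT and from 7.82 and 7.26 to 10.73 and 10.64 in snf1, a difference in response of 3.73 ± 0.72 (adjusted p = 0.00275). RRN11, a subunit of the core factor that directs RNA polymerase I to ribosomal DNA, rose in snf1 and not by the test in WT. The values were 8.89 and 9.17 before and 8.79 and 9.20 after UV in WT, and 6.29 and 6.31 before and 9.04 and 9.16 after UV in snf1, and the difference in response was 2.84 ± 0.30 (adjusted p = 1.82e-06).

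ACM1 encodes an inhibitor of the anaphase-promoting complex with Cdh1, and its strains moved to opposite sides. WT fell by 0.91 ± 0.26 and snf1 rose by 1.68 ± 0.26, from arrays that went from 10.71 and 10.90 to 9.76 and 10.03 in WT and from 8.82 and 8.85 to 10.54 and 10.47 in snf1. The difference was 2.59 ± 0.36 (adjusted p = 0.000169). YGR079W, of unknown function, rose in both strains, by 1.10 ± 0.32 in WT and 3.21 ± 0.32 in snf1. The difference was 2.11 ± 0.45 (adjusted p = 0.00605). YKR041W, also uncharacterised, was above background in unirradiated WT alone, at 4.18 and 4.26. It was 2.09 and 2.09 in WT at 30 min and 2.21 or lower on the snf1 arrays, so it was at least 4.13-fold lower in unirradiated snf1 (adjusted p = 5.17e-09) and its difference in response (2.19 ± 0.26, adjusted p = 1.17e-05) is the fall in WT. POT1, the thiolase that ends each round of peroxisomal fatty acid oxidation, was the reverse case, at background in WT at both times. In snf1 it rose from 7.38 and 7.61 to 9.59 and 9.32, by 1.96 ± 0.30 (adjusted p = 3.87e-05). POT1 was at least 40.3-fold higher in snf1 at the start and at least 157-fold higher at 30 min.

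The genes with a lower response were ones that snf1 expressed above WT before irradiation. The flocculin gene FLO1, whose product makes cells clump, had the widest gap at the start among the 219 genes. Its signal was 6.09 and 6.29 on the unirradiated WT arrays, 7.99 and 7.74 in WT at 30 min, 13.86 and 13.90 in unirradiated snf1 and 12.56 and 12.48 in snf1 at 30 min, with every snf1 array above every WT array (before irradiation 81.4% of tested probe sets had no overlap between the strains). WT rose by 1.68 ± 0.30 and snf1 fell by 1.36 ± 0.30, a difference of -3.03 ± 0.43 (adjusted p = 0.000173), and the strains were still apart by 4.66 ± 0.30 at 30 min. FLO1 and FLO9 have near-identical stretches, so their signals may be mixed. YMR315W-A, an uncharacterised frame, and DIA1, a gene of invasive growth, are neighbours on chromosome XIII. YMR315W-A went from 3.09 and 2.20 to 2.01 and 2.12 in WT and from 6.95 and 7.05 to 2.24 and 2.48 in snf1, so that at 30 min all 4 arrays lay between 2.01 and 2.48. Its difference in response was -4.06 ± 0.39 (adjusted p = 4.63e-07). DIA1 went from 11.22 and 11.25 to 11.76 and 11.71 in WT and from 13.59 and 13.63 to 11.69 and 11.65 in snf1, with all 4 arrays at 30 min between 11.65 and 11.76, and differed by -2.44 ± 0.49 (adjusted p = 0.00409).

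REC102, needed for meiotic double-strand breaks, went from 4.10 and 3.03 to 4.89 and 4.21 in WT and from 8.07 and 8.22 to 5.33 and 5.43 in snf1, a difference in response of -3.75 ± 0.62 (adjusted p = 0.000829). PCH2, a meiotic checkpoint ATPase, was above background in unirradiated snf1 alone, at 5.71 and 5.53, where it was above WT by at least 3.46 log2 units. At 30 min snf1 was at 2.25 and 2.34 and WT at 2.17 and 2.18, and the responses differed by -3.36 ± 0.68 (adjusted p = 0.00404). SPS100, of the spore wall, remained far apart. It was 3.88 and 3.40 before and 5.45 and 5.08 after UV in WT, and 9.96 and 10.08 before and 9.10 and 9.40 after UV in snf1, and WT rose by 1.63 ± 0.35 while the change in snf1 was -0.77 ± 0.35 (adjusted p = 0.104). PES4, which encodes a relative of poly(A)-binding protein, fell in snf1 by 2.37 ± 0.29 from 7.38 and 7.90, and was 3.06 to 3.44 on the WT arrays. IME1, the master inducer of meiosis, fell in both strains, from 9.80 and 9.21 to 8.50 and 8.50 in WT and from 12.03 and 11.93 to 8.82 and 9.04 in snf1. The difference was -2.05 ± 0.36 (adjusted p = 0.00151), with the strains 2.48 ± 0.25 apart at the start and 0.43 ± 0.25 at 30 min. In the list of 19 tested meiosis genes, IME1 was the 1 call (5.26%, against 4.07% of all tested probe sets), and the list's median difference in response was -0.35 beside 0.01 over all genes; the median gap went from 0.82 to 0.23.

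Of the remaining genes in this group, TOS3 bears directly on the deleted kinase, since it encodes 1 of the kinases that activate Snf1. TOS3 signal was 8.55 and 8.27 on the unirradiated WT arrays, 9.51 and 9.32 in WT at 30 min, 11.02 and 11.04 in unirradiated snf1 and 9.49 and 9.65 in snf1 at 30 min. WT rose by 1.01 ± 0.17 and snf1 fell by 1.46 ± 0.17, and at 30 min the WT arrays lay at 9.32 and 9.51 and the snf1 arrays at 9.49 and 9.65. The difference in response was -2.47 ± 0.24 (adjusted p = 4.63e-07). In YPL264C, an uncharacterised gene, it was WT that moved toward the snf1 level. It rose in WT by 3.02 ± 0.35, from 7.17 and 7.37 to 10.32 and 10.26, and was 10.94 and 10.97 before and 10.56 and 10.70 after UV in snf1. The difference was -3.35 ± 0.49 (adjusted p = 0.000337). RPI1, which encodes a transcription factor tied to Ras signalling, crossed over. It went from 7.64 and 7.14 to 8.36 and 7.95 in WT and from 8.92 and 8.63 to 6.84 and 6.81 in snf1, so snf1 was above WT by 1.38 ± 0.31 at the start and below it at 30 min (-1.34 ± 0.31). The uncharacterised genes YHR022C and YOL014W changed in snf1 by -1.65 ± 0.39 and -2.86 ± 0.35, and their differences in response were -2.80 ± 0.55 and -2.72 ± 0.50.

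Crossing of this kind was called at both times in 12 genes. Besides RPI1, snf1 was the higher strain at the start and the lower at 30 min in CUR1, which helps sort misfolded proteins, and GIS1, a transcription factor of nutrient limitation. In the other 9, snf1 was the lower at the start. Those whose calls held without any 1 array were HXT1, the low-affinity glucose transporter, PFK27, which makes an activator of glycolysis, SKS1, a kinase of the response to low glucose, and ALG12, a mannosyltransferase of glycosylation. HXT1 went from 13.09 and 13.00 to 12.70 and 12.53 in WT and from 12.06 and 11.98 to 13.44 and 13.37 in snf1, a difference in response of 1.82 ± 0.34 (adjusted p = 0.00221), with gaps of -1.03 ± 0.24 and 0.79 ± 0.24. PFK27 and SKS1 differed in response by 1.56 ± 0.29 and 1.88 ± 0.30. ACO1 (aconitase), CDC9 (DNA ligase), VID24, YOX1 and YHR214C-E make up the rest, with calls that ended without 1 of the arrays.

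The genes of carbon use were split. Of the 27 tested genes for ethanol, acetate, lactate and gluconeogenesis, 7 had a higher response in snf1 and 1 a lower one, against 2.14% and 1.93% of all tested probe sets. In the fit without the 6 arrays that stood apart, 10 and 1 did, against 258 and 304 of all 5380 probe sets. The 7 were JEN1, ADY2, CIT3, ADH2, ACS1, ATO3 and CIT2. ACS1, the acetyl-CoA synthetase used for growth on acetate, went from 10.25 and 9.80 to 10.04 and 9.98 in WT and from 11.06 and 11.16 to 13.03 and 12.94 in snf1, and differed by 1.89 ± 0.34 (adjusted p = 0.00198). ATO3, a relative of ADY2, differed by 1.28 ± 0.22 (adjusted p = 0.000869) from a gap of -1.44 at the start. The 1 lower gene was STL1, the glycerol importer, which was above background in unirradiated snf1 alone (4.19 and 5.20), at least 5.39-fold over WT. Of the enzymes of gluconeogenesis and the glyoxylate cycle, CIT2 was called, while FBP1, PCK1, MLS1 and ICL1 were not. FBP1 differed in response by -0.71 ± 0.61, PCK1 by -0.40 ± 0.43 and MLS1 by -0.45 ± 0.64, with adjusted p from 0.71 to 0.886, and for ICL1 the adjusted p was 0.338. In level, 18 of the 27 were higher in snf1 at the start (21.6% of all tested were) and 19 at 30 min (13.2%), while 1 and 0 were lower (23.6% and 12.9%). The list's median gap was 1.35 and 1.73 at these times, and its median difference in response was 0.26 beside 0.01 over all genes.

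In peroxisomal fatty acid oxidation, 3 of 15 tested genes were called higher in response (POT1, PXA1 and FAA2) and none lower, against 2.14% and 1.93% of all tested. FAA2, which activates medium-chain fatty acids, rose in both strains, from 7.75 and 7.75 to 8.63 and 8.67 in WT and from 9.17 and 9.17 to 11.18 and 11.07 in snf1, and differed by 1.06 ± 0.21 (adjusted p = 0.00283). CTA1, the peroxisomal catalase, had a difference of 1.53 ± 1.02, which did not pass the test (adjusted p = 0.567). The median gap was 1.13 at the start and 1.40 at 30 min. Of 35 genes of oxidative phosphorylation, 30 were higher in unirradiated snf1 (21.6% of all tested), 30 at 15 min (16.4%), 14 at 30 min (13.2%) and 28 at 60 min (5.48%), with median gaps of 0.60, 0.49, 0.32 and 0.54. The count at 60 min is uncertain: the 2 WT arrays there were over 2-fold apart in 780 probe sets. With the 60 min arrays fitted alone, 1 of all 5380 probe sets was called. The 1 call in response (2.86%, beside 4.07% of all tested) was ATP14, a subunit of the ATP synthase (-0.66 ± 0.17, adjusted p = 0.0289). The median difference was -0.24, or -0.31 to -0.16 without any 1 array. Among 8 genes of respiratory growth RGI2 was the 1 call (12.5%, beside 4.07% of all tested). ISF1, in the same list, fell by 5.07 in WT and fell by 2.41 in snf1, and its difference of 2.66 ± 0.86 did not pass (adjusted p = 0.0858).

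Of 21 genes for glycogen and trehalose, 15 were higher in snf1 at the start (21.6% of all tested) and 11 at 30 min (13.2%). GSY2, the main glycogen synthase, was the 1 call in response (4.76%, beside 4.07% of all tested). It went from 10.79 and 10.38 to 10.62 and 10.49 in WT and from 13.48 and 13.59 to 12.19 and 12.20 in snf1, a difference of -1.30 ± 0.28 (adjusted p = 0.00752). Of 47 genes of the general environmental stress response, 37 were higher at the start and 31 at 30 min, beside the same 21.6% and 13.2%, with median gaps of 1.58 and 0.93 and a median difference in response of -0.36. YAK1, a kinase that is inhibited when glucose is plentiful, was the 1 call in response (-1.11 ± 0.26, adjusted p = 0.0126), a share of 2.13%. In the fit without the 6 arrays that stood apart 11 were lower and 1 higher, against 304 and 258 of all 5380 probe sets. HSP30, a membrane heat shock protein, fell in both strains, from 11.43 and 10.86 to 7.34 and 7.29 in WT and from 14.29 and 14.30 to 7.05 and 7.62 in snf1, and its difference of -3.13 ± 1.17 did not pass (adjusted p = 0.162). The 22 heat shock chaperone genes lay on the other side. In unirradiated snf1 9 were lower and 1 higher (23.6% and 21.6% of all tested). At 30 min 9 were lower and 0 higher (12.9% and 13.2% of all tested), and the median gaps were -0.47 and -0.49. None of them was called in response, and their median difference was -0.02. Among 11 tested genes of hexose transport and sensing HXT1 was the 1 call (9.09%, beside 4.07% of all tested). The list's median of -0.21 lay between -0.48 and 0.14 without 1 of the arrays. HXT5 differed by -1.05 ± 1.03 and SUC2, the invertase and classic target of Mig1, by -0.92 ± 0.35, with adjusted p of 0.777 and 0.162.

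Among 20 transcription factors of glucose regulation, 2 had a higher response in snf1 (MIG2 and NRG2) and 3 a lower one (ADR1, USV1 and GSM1), against 2.14% and 1.93% of all tested. ADR1, the activator of ADH2 and of peroxisomal genes, began high in snf1 and fell. Its signal was 9.38 and 9.45 on the unirradiated WT arrays, 8.91 and 8.71 in WT at 30 min, 11.56 and 11.48 in unirradiated snf1 and 9.26 and 9.10 in snf1 at 30 min. The unirradiated snf1 arrays were the highest, and the other 6 lay between 8.71 and 9.45. The responses differed by -1.73 ± 0.27 (adjusted p = 0.00059). USV1 and GSM1, zinc finger regulators of growth on non-fermentable carbon, went from 8.80 and 8.14 to 9.50 and 9.06 in WT and from 10.35 and 10.25 to 9.29 and 9.21 in snf1, and from 8.57 and 8.36 to 8.90 and 8.51 in WT and from 10.52 and 10.59 to 9.73 and 9.62 in snf1, with differences of -1.86 ± 0.48 and -1.13 ± 0.31. NRG2 fell by 1.75 in WT and fell by 0.65 in snf1, a difference of 1.10 ± 0.25 (adjusted p = 0.0109). CAT8 and SIP4, the activators of gluconeogenic genes, did not differ in response by the test (-0.17 ± 0.80 and -0.07 ± 0.51, adjusted p = 0.979 and 0.983). CAT8 fell in both strains, from 6.04 and 5.56 to 4.05 and 2.74 in WT and from 7.11 and 6.98 to 4.65 and 4.30 in snf1. SIP4 was higher in snf1 at both times, by 2.13 ± 0.36 and 2.05 ± 0.36. NRG1, a repressor of genes that glucose keeps off, was higher in snf1 at both times too, by 2.20 ± 0.28 and 1.83 ± 0.28, and MIG1 was lower at the start (-1.40 ± 0.30). For the remaining 15 of the 20, the difference in response lay between -0.65 (RGT1) and 0.96 (MTH1), and the list's median was -0.11, ranging from -0.21 to 0.13 without 1 of the arrays.

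Of 11 genes for the Snf1 complex and its regulators, TOS3 was the 1 call (9.09%, beside 4.07% of all tested). The regulatory subunit genes SNF4, GAL83, SIP1 and SIP2 differed in response by -0.20, -0.15, 0.10 and 0.33, and the kinase genes SAK1 and ELM1 by -0.01 and 0.39, all short of the threshold. REG2, a targeting subunit of the phosphatase that opposes Snf1, was 7.07 and 7.11 before and 8.24 and 8.18 after UV in WT, and 8.90 and 9.13 before and 9.49 and 9.57 after UV in snf1. It was higher in unirradiated snf1 by 1.92 ± 0.52 (adjusted p = 0.0043), and its difference in response was -0.60 ± 0.73 (adjusted p = 0.848). REG1, its other targeting subunit, and GLC7, its catalytic subunit, differed by -0.05 and -0.21. The list's median was -0.05.

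Each of 4 lists of the response to DNA damage held 1 call for the difference in response, a share of 11.1% (ribonucleotide reductase), 7.14% (checkpoint), 6.25% (nucleotide excision repair) and 5% (other repair) beside 4.07% of all tested. Of 9 ribonucleotide reductase and Crt1-regulated genes, 6 rose in WT and 8 in snf1 (12.6% and 15.7% of all tested), and RNR1 alone was called for the difference. RNR1, the main large subunit, was 12.71 and 12.50 on the unirradiated WT arrays, 13.35 and 13.33 in WT at 30 min, 11.01 and 10.92 in unirradiated snf1 and 13.29 and 13.42 in snf1 at 30 min. All arrays other than the unirradiated snf1 ones lay at 12.50 or more. The difference was 1.66 ± 0.38 (adjusted p = 0.011, and up to 0.0549 without 1 of the arrays). The damage-induced RNR3 went from 9.03 and 8.57 to 10.98 and 10.63 in WT and from 9.65 and 9.72 to 11.27 and 11.33 in snf1, a difference of -0.39 ± 0.54 (adjusted p = 0.875). HUG1, a small inhibitor of the enzyme, rose by 2.23 ± 0.44 in WT and 2.20 ± 0.44 in snf1, and kept a gap of 1.86 ± 0.44 at the start and 1.83 ± 0.44 at 30 min. The 95% interval of its difference in response (-0.03) extends 1.30 to each side, so a difference of that size could go unseen. RNR2 and RNR4, the small subunits, differed by 0.06 ± 0.11 and 0.15 ± 0.13, RFX1, the Crt1 repressor gene, by -0.24 ± 0.28, DUN1 by 0.69 ± 0.20 (adjusted p = 0.0538), SML1, another inhibitor, by 0.44 ± 0.17 and DIF1, which governs import of the small subunits, by 0.75 ± 0.26.

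Of 14 checkpoint genes 6 were lower and 2 higher in unirradiated snf1 (23.6% and 21.6% of all tested), and PDS1, the securin, was the 1 call in response. It fell in WT by 0.87 and not by the test in snf1 (0.09, adjusted p = 0.735), a difference of 0.96 ± 0.23 (adjusted p = 0.016). RAD53 differed by 1.00 ± 0.31 (adjusted p = 0.0781), and the list's median was 0.22. In nucleotide excision repair TFB4, a subunit of the repair and transcription factor TFIIH, was the 1 call of 16 (0.66 ± 0.18, adjusted p = 0.0368), and the list's median was 0.00. In level, 5 of the 16 were lower and 2 higher at the start (23.6% and 21.6% of all tested). At 30 min 3 were lower and 2 higher (12.9% and 13.2% of all tested). The 2 higher ones were RAD7 and RAD16, which form the complex for repair of silent chromatin and were higher in snf1 at both times, RAD16 by 1.09 ± 0.23 and 0.75 ± 0.23 and RAD7 by 0.99 ± 0.16 and 0.65 ± 0.16. Of 20 other tested repair genes PLM2, a transcription factor gene that damage induces, was the 1 call. It rose in both strains, from 6.36 and 6.47 to 9.07 and 8.68 in WT and from 4.38 and 4.23 to 8.52 and 8.32 in snf1, by 1.67 ± 0.44 more in snf1 (adjusted p = 0.029). PHR1, the photolyase, differed by -0.52 ± 0.50 (adjusted p = 0.764). None of the 9 tested core histone genes was called: 8 fell in WT and 7 in snf1 (12.6% and 15.3% of all tested), with median responses of -1.32 and -1.19. HHT1, for histone H3, went from 14.42 and 14.47 to 12.72 and 12.69 in WT and from 14.43 and 14.35 to 13.29 and 13.36 in snf1, a difference of 0.68 ± 0.25 (adjusted p = 0.146).

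The list with the largest median difference in response was that of G1/S and replication genes, which are transcribed together as cells enter S phase. Of 32 tested, 7 were called higher in snf1 and none lower, against 2.14% and 1.93% of all tested, and 31 of the 32 differences were above 0. In the fit without the 6 arrays that stood apart, 14 were called, all higher, beside 258 higher and 304 lower of all 5380 probe sets. The list's median was 0.83 beside 0.01 over all genes, and 0.74 to 0.85 without any 1 array. PCL1, a G1 cyclin, had the largest difference of the list. It went from 6.89 and 7.53 to 9.16 and 9.34 in WT and from 5.74 and 5.55 to 10.17 and 10.17 in snf1, which is a rise of 2.04 ± 0.38 in WT and 4.52 ± 0.38 in snf1 and a difference of 2.49 ± 0.54 (adjusted p = 0.0072). CDC45, a part of the replicative helicase, went from 9.35 and 9.60 to 9.61 and 9.71 in WT and from 7.55 and 7.94 to 9.47 and 9.40 in snf1, with the unirradiated snf1 arrays below the other 6, and differed by 1.51 ± 0.24 (adjusted p = 0.00059). MCD1, a cohesin subunit, went from 9.52 and 9.89 to 9.72 and 10.12 in WT and from 8.27 and 8.08 to 9.93 and 9.85 in snf1, with the same order of groups, and differed by 1.51 ± 0.25 (adjusted p = 0.00071). The others called were RNR1, POL30 (the sliding clamp), CLB5 (an S-phase cyclin) and CDC9. These genes as a list began low: 25 of the 32 were lower in unirradiated snf1 (23.6% of all tested) and 1 higher, with a median gap of -0.85. At 30 min 5 were lower, a share near the 12.9% of all tested, and 2 higher, with a median of -0.11. In snf1 17 of them rose with irradiation (15.7% of all tested) and 2 fell, and in WT 3 rose and 5 fell (12.6% each of all tested).

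Mitotic genes of the CLB2 cluster began low as well. Of 19, 14 were lower in unirradiated snf1 (23.6% of all tested) and 10 at 30 min (12.9%), and none was higher. Their median gap went from -1.09 to -0.61, and 16 of the 19 differences in response were above 0. CLB1, a mitotic cyclin, and CDC5, the polo kinase, were called higher in response (10.5%, against 2.14% of all tested). CLB1 went from 11.62 and 11.75 to 9.88 and 9.64 in WT and from 10.19 and 10.03 to 9.74 and 9.62 in snf1, a difference of 1.49 ± 0.36 (adjusted p = 0.0152): WT came down to the level snf1 began from. Of 93 genes of ribosome biogenesis, 80 were lower in unirradiated snf1 and 60 at 30 min, beside the same 23.6% and 12.9%, with medians of -0.83 and -0.64. The 4 called in response (4.3%, beside 4.07% of all tested), all higher in snf1, were the small subunit processome genes UTP6, UTP9, UTP15 and BUD21. UTP6 went from 11.47 and 11.63 to 11.78 and 11.82 in WT and from 9.94 and 9.93 to 11.23 and 11.20 in snf1, a difference of 1.04 ± 0.23 (adjusted p = 0.00847). Of 61 mitochondrial ribosomal protein genes, 38 were lower at the start and 11 at 30 min (23.6% and 12.9% of all tested). MRPL16 was the 1 call (0.87 ± 0.23, adjusted p = 0.0335), a share of 1.64% beside 4.07% of all tested. None of 19 single-copy genes of cytosolic ribosomal proteins was called in any of the 4 comparisons of these 8 arrays or in the difference in response, and their median difference was 0.03. Of 37 proteasome genes none was called in response, with a median of 0.08. RPN4, their activator, differed by -1.01 ± 0.39 (adjusted p = 0.178).

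**Figure D3:**
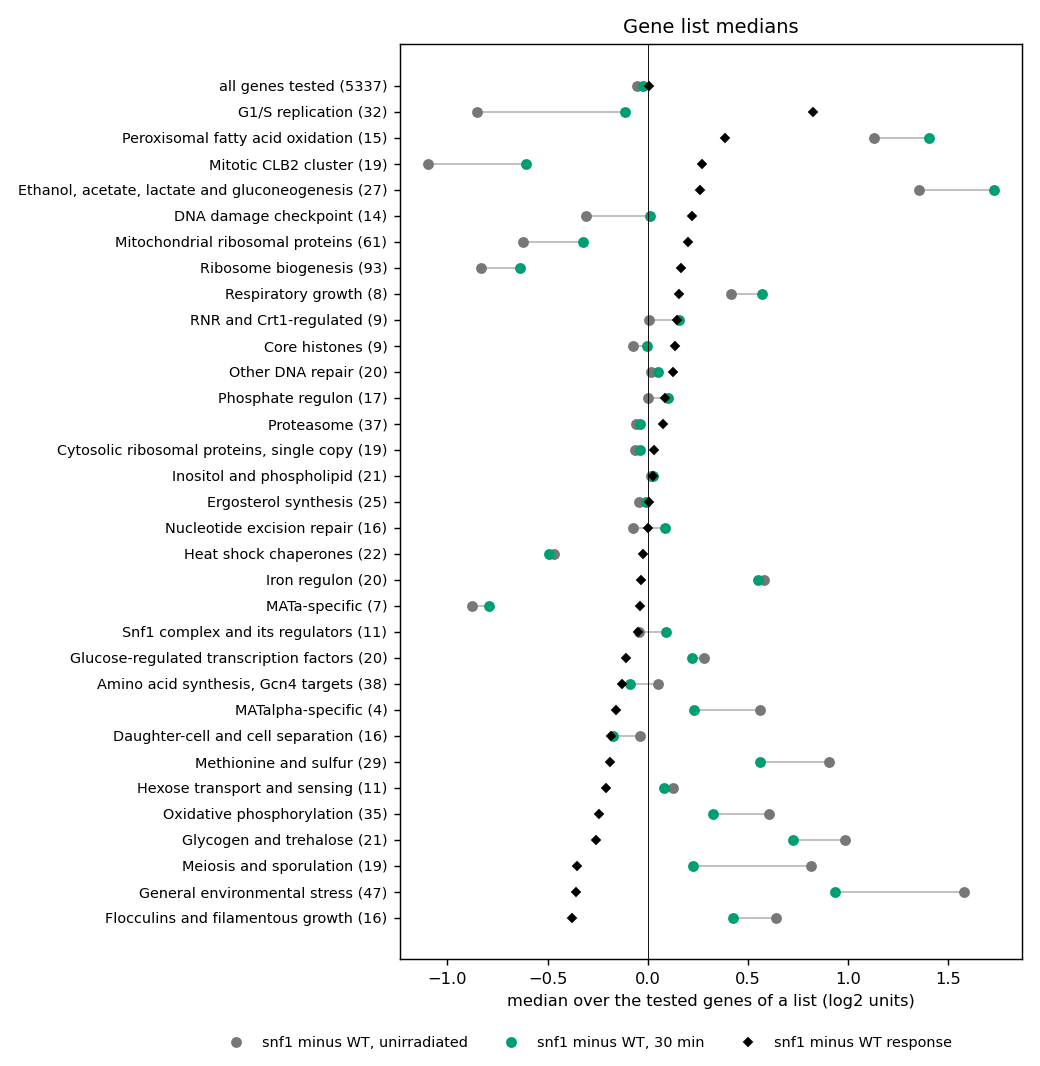
Median over the tested genes of each list (number in brackets) of the log2 difference of snf1 from WT unirradiated (grey circle) and at 30 min (green circle), and of the difference in response (black diamond), with all 5337 genes in the top row. G1/S replication genes have the largest median difference in response, 0.83, from a median gap of -0.85 that closes to -0.11, while flocculins and stress genes lie at the other end with gaps that narrow from above.

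Among the other lists, methionine and sulfur genes stood higher in unirradiated snf1 in 21 of 29 (21.6% of all tested), and 2 were called lower in response (1.93% of all tested). MET28, a cofactor of the activator Met4, went from 3.78 and 4.02 to 8.71 and 8.82 in WT and from 8.07 and 8.02 to 9.24 and 9.18 in snf1: WT rose toward the snf1 level, and the difference was -3.70 ± 0.96 (adjusted p = 0.0259). MUP3, a low-affinity methionine permease, fell in snf1, from 8.47 and 7.76 to 8.57 and 8.37 in WT and from 11.06 and 10.95 to 8.85 and 9.20 in snf1, and differed by -2.33 ± 0.39 (adjusted p = 0.000869). In the fit without the 6 arrays that stood apart 8 of the 29 were lower and 1 higher, against 304 and 258 of all 5380 probe sets. None of 38 Gcn4-regulated genes of amino acid synthesis was called in response. ARG4 came nearest, from 13.53 and 13.55 to 15.03 and 15.06 in WT and from 14.19 and 14.21 to 14.83 and 14.76 in snf1, with a difference of -0.91 ± 0.26 (adjusted p = 0.0502). In the list of 16 flocculins and filamentous growth genes FLO1, FLO11 and FLO9 were lower and NRG2 higher, with a median of -0.38. Of all tested probe sets 1.93% were lower and 2.14% higher. FLO9 went from 10.47 and 9.92 to 10.64 and 10.47 in WT and from 13.91 and 13.97 to 12.94 and 12.97 in snf1, a difference of -1.35 ± 0.29 (adjusted p = 0.00693). Of 21 inositol and phospholipid genes 1 was called (4.76%, beside 4.07% of all tested). INO2, their activator, was higher in response (1.63 ± 0.36, adjusted p = 0.00775), as it fell by 2.35 in WT and fell by 0.72 in snf1. Its target INO1, inositol phosphate synthase, rose in both strains, from 6.10 and 4.92 to 9.75 and 9.87 in WT and from 10.20 and 10.43 to 12.60 and 12.66 in snf1, and its difference of -1.99 ± 0.94 did not pass (adjusted p = 0.313).

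Lists with 1 call were phosphate (PHM6, of 17), iron (ARN2, a siderophore transporter, of 20), ergosterol (ERG5, of 25), cell separation (CHS1, a chitin synthase, of 16) and a-specific genes (STE2, the alpha factor receptor, of 7). These are shares of 5.88%, 5%, 4%, 6.25% and 14.3%, beside 4.07% of all tested probe sets. ARN2 differed by -1.45 ± 0.41, ERG5 by 1.07 ± 0.26, CHS1 by -0.79 ± 0.21 and STE2 by 0.61 ± 0.18, and each of these calls ended without 1 of the arrays. Their list medians lay between -0.18 and 0.09. None of the 4 alpha-specific genes was called. Of the called genes named here from lists and classes, ATP14, GSY2, YAK1, USV1, GSM1, PDS1, TFB4, PLM2, PCL1, CLB5, CLB1, CDC5, UTP6, UTP9, UTP15, BUD21, MRPL16, MET28, FLO9, INO2 and CUR1 also lost their calls without at least 1 of the 8 arrays. PHO4, the activator of the phosphate genes, differed by 1.75 ± 0.65 (adjusted p = 0.159), and FRE2, an iron reductase, by -1.51 ± 0.45 (adjusted p = 0.0594).

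The same strains were also measured at 15 and 60 min, on arrays that the difference in response at 30 min does not use. Unirradiated arrays did enter the choice of the 115 and 104 probe sets, which can widen their gaps at the start. Their course over time is therefore a description. In the 115 probe sets with a higher response, the median gap of snf1 from WT was -0.22 at 15 min and 0.02 at 60 min, after -1.17 unirradiated. In the 104 with a lower response it was 0.83 at 15 min and 0.22 at 60 min, after 1.77. The median size of the gap over all tested probe sets was 0.43 unirradiated and 0.31, 0.29 and 0.21 at 15, 30 and 60 min. MIG2 had closed by 15 min, at 10.85 and 10.66 in snf1 and 10.62 and 10.54 in WT. RRN11 had too, at 8.81 and 8.99 and 8.39 and 8.74. IME1 was later: at 15 min snf1 was still at 11.64 and 11.53 against 9.42 and 9.26 in WT. FLO1 came down throughout, with snf1 at 13.33 and 13.30 at 15 min and 10.08 and 10.19 at 60 min, where WT was at 7.37 and 7.92. The strain difference was called for 1560 probe sets (29%) at 15 min and 438 (8.14%) at 60 min, the latter 295 higher (5.48%) and 143 lower (2.66%). The 2 WT arrays at 60 min differed by over 2-fold in 780 probe sets, and with the 60 min arrays fitted alone 1 was called (542 at an unadjusted p under 0.05).

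The carbon genes described first were singled out by their values at 30 min, so their course over time is a description, with no test. JEN1 in snf1 was 4.49 and 4.20 at 15 min, 7.70 and 7.72 at 30 min and 3.03 and 3.03 at 60 min, and in WT 3.61 and 3.09 at 15 min and 3.03 and 3.03 at 60 min. Its gap to WT was thus 1.00 at 15 min, 4.68 at 30 min and 0.00 at 60 min. At 60 min both strains were at 3.03, the recurring lowest signal of JEN1, so a gap below that signal may go unseen. ADY2 in snf1 was 3.79 and 3.83 at 15 min and 3.77 and 3.74 at 60 min, with gaps of 0.52 and 0.03. PDH1 was 9.67 and 9.89 and 10.54 and 10.39, with gaps of 0.22 and -0.46. For CIT3 the gaps were 2.37 at 15 min and 0.82 at 60 min, beside 5.35 at 30 min, and for ACS1 0.85 and 0.54, beside 2.98. ADH2 in snf1 was 10.78 and 10.85 at 15 min and 12.86 and 12.78 at 60 min, against 8.91 and 8.16 and 7.96 and 9.04 in WT, so its gap at 60 min (4.32) was no smaller than at 30 min (3.72).

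**Figure D4:**
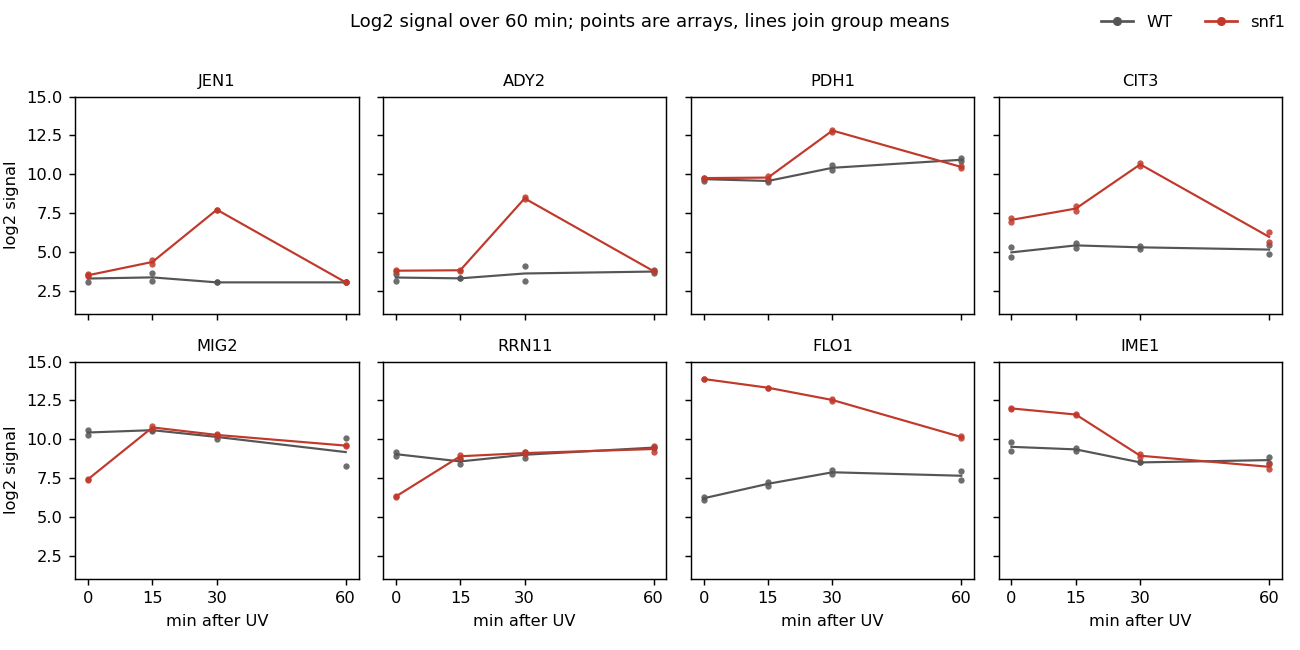
Log2 signal of 8 genes in WT (grey) and snf1 (red), unirradiated (0) and 15, 30 and 60 min after UV; points are arrays and lines join the means of 2. JEN1, ADY2, PDH1 and CIT3 are highest in snf1 at 30 min and nearer to WT again at 60 min, MIG2 and RRN11 meet WT from below by 15 min, and IME1 meets it from above at 30 min while FLO1 stays higher in snf1 at 60 min.

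The same comparison could be made in cells without RAD23, a partner of the damage recognition protein Rad4, on 8 further arrays: rad23 and snf1rad23 (lacking both genes), unirradiated and at 30 min, with 2 arrays each and the same background, medium and dose. The response of snf1rad23 differed from that of rad23 for 247 probe sets (4.59%), 166 higher (3.09%) and 81 lower (1.51%). Without 1 of these 8 arrays the count was 120 to 304, and without the 6 arrays that stood apart it was 655. Of the 115 probe sets with a higher response in snf1, 31 were called higher and 2 lower in this comparison, and the median difference was 0.35 beside -0.02 over all tested. Of the 104 with a lower response, 5 were called lower and 7 higher, and the median was -0.02. JEN1 and ADY2 were again high at 30 min without SNF1. JEN1 was 3.47 and 3.10 before and 7.54 and 7.35 after UV in snf1rad23, and 9.43 and 9.19 before and 7.07 and 7.14 after UV in rad23. ADY2 was 3.81 and 3.08 and 9.08 and 9.01 in snf1rad23, and 10.55 and 10.74 and 7.91 and 8.29 in rad23. Thus in the double deletion both genes went up from near the level of snf1, while in rad23 they began high and went down. The differences in response, 6.37 ± 0.24 and 8.14 ± 0.39, come from both strains. In both genes the 2 strains were further apart unirradiated than at 30 min, where JEN1 lay between 7.07 and 7.54 in both. With RAD23, by contrast, no gap was called at the start and the strains were apart at 30 min.

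RGI2 was likewise high in unirradiated rad23, at 9.89 and 10.37, and at 2.81 and 2.52 at 30 min. In snf1rad23 it went from background to 5.10 and 4.50. CIT3 ended at 10.19 and 10.03 in snf1rad23 against 8.79 and 8.63 in rad23, and PDH1 at 12.49 and 12.64 against 12.18 and 11.45. POT1 was 6.59 and 7.64 in unirradiated rad23, where WT was at background, and went in snf1rad23 from 7.37 and 7.11 to 10.97 and 10.68. In all, 8 of the 12 largest higher responses were called higher here too, a count that does not separate a gap at the start from a gap at 30 min. The exceptions were MIG2 (1.01 ± 0.52, adjusted p = 0.345), RRN11 (-0.69), YKR041W (-0.52) and YGR079W (0.06). The low start of RRN11 was not seen without RAD23: unirradiated it was 9.32 and 8.71 in snf1rad23 and 9.10 and 8.99 in rad23. The difference in response itself differed between cells without and with RAD23 for 173 probe sets (3.22%), 107 higher without RAD23 (1.99%) and 66 lower (1.23%). Of the 115 it was called for 31, and of the 104 for 38. The difference with RAD23 both chose these probe sets and enters this test, so the 2 counts are a description. Among the 12 largest lower responses 2 were called lower here, YMR315W-A (-3.98 ± 0.39, adjusted p = 2.69e-07) and TOS3 (-1.48 ± 0.24, adjusted p = 0.000355). SPS100 was called higher (3.16 ± 0.50, adjusted p = 0.000329), and went in snf1rad23 from 5.63 and 5.45 to 9.12 and 9.47. FLO1 was high before UV in both snf1 deletions, at 13.23 and 13.17 in snf1rad23 against 8.93 and 9.28 in rad23.

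**Figure D5:**
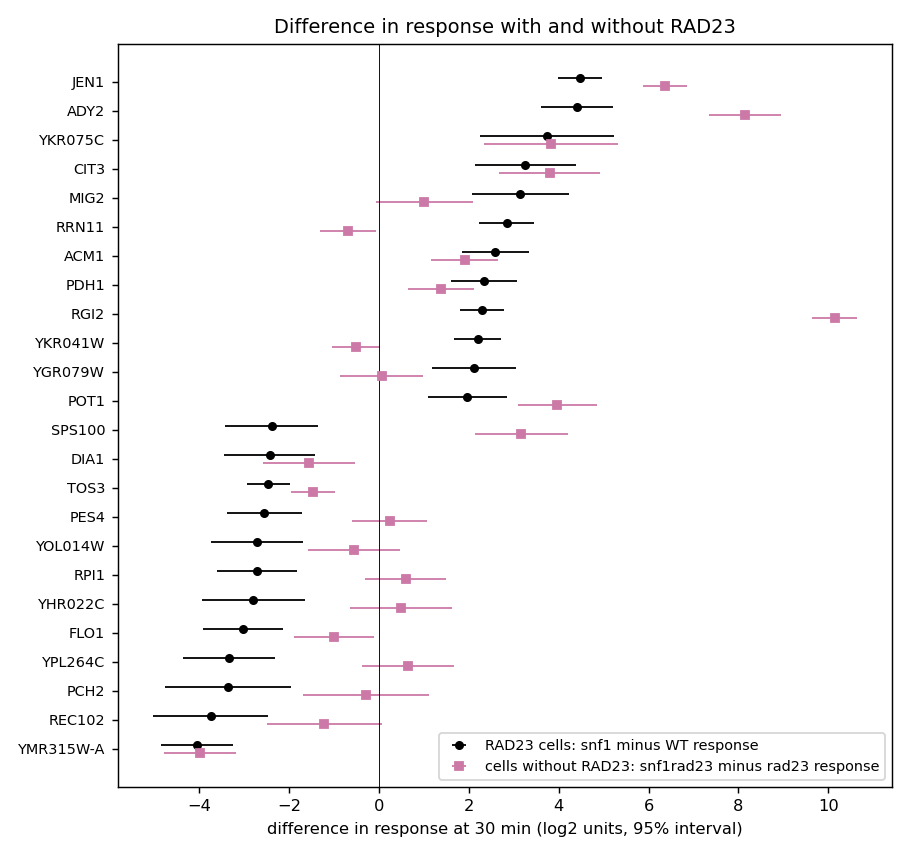
Difference in response at 30 min (log2 units, with 95% intervals from limma) of 24 genes in cells with RAD23 (black circles, snf1 minus WT) and without it (pink squares, snf1rad23 minus rad23). Among the top 12 genes 8 are called higher in both, with RGI2 at 10.15 without RAD23. For RGI2, JEN1 and ADY2 the strains without RAD23 were further apart unirradiated than at 30 min. Among the bottom 12 only YMR315W-A and TOS3 are called lower in both while SPS100 lies on the other side of 0.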

How the data were processed

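RNA was measured on 41 Affymetrix Yeast 2.0 arrays in 21 groups of strain and time, grouped by their labels. The deposited values are log2 signals, made by the authors with GCRMA 2.10.0 in R 2.6.2, per the submitters' processing notes. This method models background from probe sequence and normalises all arrays to 1 distribution, so a shift shared by all genes cannot be seen, and signals near background are compressed. The values run from 1.62 to 15.96. Precision is limited by how many arrays there are, since sequencing depth does not apply.

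Of 10928 probe sets, 213 are controls, 3470 are not listed with a gene in the platform table used and 5498 matched 1 gene of the R64 gene table. The 118 that did not reach 4 on at least 2 arrays were left out, which leaves 5380 probe sets for 5337 genes. A gene with several is given by the one of highest mean. A probe set that reached 4 in 1 group alone passed this filter through that group, so its p-values are a description. Of the 8 arrays, only those of 1 unirradiated group reached 4 in YKR041W, PCH2, YMR315W-A and STL1. limma 3.58.1 in R 4.3.3 fitted 1 mean per group on all 41 arrays (20 residual degrees of freedom), and p-values were adjusted over the 5380 by the Benjamini-Hochberg method. A group was taken as at background where both arrays lay within 0.2 of the 95th percentile of fission yeast probe sets (2.12 to 2.19), and a fold against it is a lower limit from that percentile or the probe set's own signal. Tested on simulated data for the difference in response over 5380 probe sets, the fit recovered 8%, 54%, 90% and 96% of changes of 0.5, 1, 2 and 3 log2 units, and called 6 of 5180 unchanged ones. The simulation gave each probe set the same spread on all arrays. In the data the standard deviation of replicate differences was 0.15 in snf1 at 30 min and 0.75 in WT at 60 min, so these rates may not hold there.

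Named genes are the 12 largest differences in each direction among calls that held without any 1 of the 8 arrays, up to 4 of each list with the largest differences, and all of 3 lists (ribonucleotide reductase, Snf1 complex, glucose-regulated factors). Others named as called members of a list or class were chosen after their values were seen. The members and lists were chosen with earlier results of these data known. Nothing says that the replicates came from separate cultures, so p-values measure the spread between these arrays, which may be technical. Alternatives were other filters, normalisations and variance settings, a replicate block, fewer arrays and leaving out each array.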

Additional observations from a re-analysis of the deposited data

Results flagged for a closer look

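A difference between groups marks 2 counts and 10 genes. The response at 30 min differed between snf1 and WT for 219 probe sets, and the size of that difference itself differed between cells without and with RAD23 for 173 probe sets (3.22% of 5380). In the 219 probe sets this second test was called for 31 of the 115 with a higher response and 38 of the 104 with a lower one. Since the genes were chosen for their difference with RAD23, which enters this test too, values nearer to 0 without it are part of that choice. The counts, and the adjusted p of the genes below, are therefore a description.

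For 5 of the 12 genes with the largest lower responses, the difference was higher without RAD23: SPS100 (5.56 ± 0.71, adjusted p = 4.4e-05), YPL264C (3.98 ± 0.70, adjusted p = 0.00235), RPI1 (3.31 ± 0.61, adjusted p = 0.0037), YHR022C (3.29 ± 0.78, adjusted p = 0.02) and PES4 (2.79 ± 0.57, adjusted p = 0.0075). YPL264C, which rose in WT and began high in snf1, was 9.53 and 9.32 after UV in rad23, and 10.59 and 10.10 before and 11.21 and 11.27 after UV in snf1rad23.

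Among the 12 largest higher responses, 3 were higher still without RAD23: RGI2 (7.85 ± 0.34, adjusted p = 6.69e-14), ADY2 (3.74 ± 0.55, adjusted p = 0.000321) and JEN1 (1.90 ± 0.34, adjusted p = 0.00271). In each of them unirradiated rad23 was above unirradiated WT. The other 2 were lower without RAD23: RRN11 (-3.53 ± 0.42, adjusted p = 1.8e-05) and YKR041W (-2.71 ± 0.36, adjusted p = 8.76e-05). YKR041W, above background in unirradiated WT, was 2.09 and 2.03 in unirradiated rad23 and 2.72 and 2.39 in unirradiated snf1rad23.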

How the results depend on the processing

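No called named gene turned sign in its difference in response. Under quantile normalisation 7 of the probe sets called unirradiated, 1 of those at 30 min and 1 of those at 15 min did, as did 10 named genes without a call under some alternative. The difference in response was called for 219 probe sets, 220 without the filter, 219 with the background filter, 240 after quantile normalisation, 217 after median centring and 205 with an intensity trend and robust prior. Array weights raised it to 1222, the 8 arrays fitted alone to 917 and the fit without WT at 60 min and mig3 at 30 and 60 min to 562. The split of 115 higher and 104 lower turned to 106 and 111 after centring, 597 and 625 with weights, 409 and 508 on the 8 arrays and 258 and 304 without the 6. Array weights and the own arrays gave 3193 and 2779 for the gap at 30 min, 3576 and 3245 for the snf1 response, 3066 and 2460 at 15 min, 27 and 1 at 60 min, and 560 and 524 for the change with RAD23. Weights gave 2416 for the WT response, and a start larger in 82.9% of calls. The own arrays gave 151 for snf1rad23 against rad23. Mean weights ran from 0.133 (WT at 60 min) to 4.70 (snf1 at 15 min). Without the 6 arrays named, the WT response, the contrast without RAD23 and the change with RAD23 counted 2055, 655 and 620. The split at 60 min, 295 higher and 143 lower, was 211 and 199 after quantile normalisation and 234 and 187 after centring. The cause of these changes was not tested.

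Leaving out 1 array gave 110 to 195 for the difference in response, 1734 to 2124 for the gap at the start, 601 to 952 at 30 min, 803 to 1190 at 15 min, 151 to 1210 at 60 min, 691 to 985 for the WT response and 943 to 1024 for that of snf1. It gave 120 to 304 for snf1rad23 against rad23, 74 to 210 for the change with RAD23, and 80.9% to 90.7% for the start. Contrasts of the gap at 30 min with that at 15 and 60 min, added after the data were seen, called 24 and 229 probe sets, 8 to 15 and 38 to 718 without 1 array, and 351 and 50 on their own arrays, and nothing is drawn from them. The lone array of a group is then assumed to vary like the other groups. With a replicate block 219 were called, 210 of them shared with the fit without it, and with the snf1 numbers crossed, also added after the data were seen, 230. The numbers were not taken to pair the arrays, since deviations of same-numbered arrays correlated at 0.50 within WT and 0.23 within snf1 but from -0.33 to -0.19 between the strains. Of the 57 genes called among 171 named, 0 turned sign and 25 lost their call under at least 1 of 18 alternatives, 6 of them other than by leaving out 1 array. Of the rest, 68 gained one. In simulated data with the same spread in all groups, which the real groups did not have, 54% of changes of 1 log2 unit were recovered. Changes of that size may thus go uncalled, at a rate not known for these data, and signals near background limit the rest.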

Other observations

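Further calls that held without any 1 array lie outside the lists and were picked after their values were seen. Higher responses in snf1 included targets and partners of the G1/S programme: NRM1, a corepressor that ends it, and TOS4, a gene it transcribes. NRM1 went from 8.68 and 8.75 to 10.10 and 9.93 in WT and from 6.40 and 6.19 to 9.12 and 9.06 in snf1, a difference of 1.50 ± 0.29 (adjusted p = 0.00248), and TOS4 differed by 1.31 ± 0.24 (adjusted p = 0.00204). In both the unirradiated snf1 arrays were the lowest, and snf1 remained below WT at 30 min. The phosphatase gene CDC14, which drives exit from mitosis, differed by 1.14 ± 0.18, the end resection gene SAE2 by 1.72 ± 0.35, PPH3, a phosphatase that acts on checkpoint proteins, by 1.17 ± 0.24, and RTT109, the histone H3 acetyltransferase of replicating chromatin, by 0.64 ± 0.12, with adjusted p from 0.00059 to 0.00439. SAE2 went from 5.28 and 5.21 to 4.70 and 4.24 in WT and from 4.18 and 4.04 to 4.72 and 5.40 in snf1, so that it fell in WT and rose in snf1.

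Lower responses included EEB1, an enzyme of ethyl ester synthesis, ROM1, an activator of the cell wall GTPase Rho1, SSK1, of the osmotic stress relay, ROD1, an arrestin that Snf1 is known to phosphorylate, and PET111, a translation activator of mitochondrial COX2. ROD1 went from 6.58 and 6.88 to 8.52 and 8.61 in WT and from 9.24 and 9.10 to 8.94 and 9.03 in snf1, a difference of -2.02 ± 0.38 (adjusted p = 0.00246): WT at 30 min came near the level that snf1 had throughout. EEB1 went from 9.94 and 9.67 to 9.77 and 9.83 in WT and from 13.48 and 13.52 to 11.68 and 11.80 in snf1, a difference of -1.76 ± 0.28 (adjusted p = 0.00059), and there snf1 fell toward WT. PET111 differed by -1.40 ± 0.19, ROM1 by -1.88 ± 0.34 and SSK1 by -1.50 ± 0.32. YMR206W, an uncharacterised gene, differed by -0.93 ± 0.14 (adjusted p = 0.000427) with RAD23 and by 5.75 ± 0.14 (adjusted p = 2.13e-19) without it, from 7.93 and 7.90 in unirradiated rad23 and 2.13 and 2.03 in unirradiated WT. Unirradiated WT was thus at background, where signals are compressed, so the size of its difference with RAD23 is uncertain.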
